A study of Mus musculus with 12 samples.

Results

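The proteases that remodel the extracellular matrix and the proteins that restrain them were followed in 12 single cultured cardiac progenitor cells (CPCs). The genes were chosen by row name over the whole table: every Mmp, Timp and Adamts gene with a number, together with Plau, Plat, Plaur, Serpine2, Serpinf1, Serpinh1, Reck, Bmp1, Htra1 and Htra3. This rule found 56 of the 21729 genes in the table. They comprise 23 matrix metalloproteinases (MMPs), 19 ADAMTS proteases, 4 tissue inhibitors of metalloproteinases (TIMPs), 3 plasminogen activation genes, 3 serpins and 4 other genes.

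The CPCs were c-Kit+ cells from the non-myocyte fraction of hearts pooled from female FVB mice aged 12 weeks, depleted of blood lineage cells. They were grown attached to gelatin in a medium with LIF, bFGF and EGF, passaged 5 times, detached with trypsin and picked by mouth pipette. Each cell gave 1 full-length cDNA library (Smart-Seq v4), all cells belong to 1 group, and freshly isolated cells were not analysed here. The labels name no animal or culture for a cell, so the group counts as 1 sample, no test was made across cells, and every spread below describes these 12 cells.

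MMPs are zinc proteases that cut collagens and other matrix proteins, and most are made as inactive precursors. TIMPs bind their active sites and block them, and TIMP2 also takes part in the activation of the MMP2 precursor at the cell surface by MMP14. ADAMTS proteases cut proteoglycans or trim procollagens, while plasminogen activators turn plasminogen into plasmin, which cuts fibrin and can activate MMP precursors. In the heart these systems shape the matrix during development and after injury, and fibroblasts and endothelial cells are known sources of them. Gelatin, on which the cells grew, is denatured collagen and a substrate of the gelatinases MMP2 and MMP9.

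Levels are given as CPM, in which the counts of each cell are scaled to sum to 1000000, and serve to compare cells for 1 gene. To compare genes, counts were divided by the summed exon length of the gene and rescaled to the same total (TPM). Total counts ran from 3453708 to 5690184 per cell, and a gene without a count may lie at up to 0.527 to 0.869 CPM, the level of 3 counts. Since reads carry no molecular identifiers, limits and intervals of this kind reflect counting error alone.

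Several libraries stood apart in marker genes of other cell types. Cell 10 held 9810 CPM summed over 10 endothelial markers, with Vwf and Cldn5 without a count, against at most 58.5 CPM elsewhere. In cell 3 the sum of 10 haematopoietic markers was 1623 CPM, of which Cd53 gave 1463 CPM, and Lyz2, Csf1r, Cd68 and Adgre1 were also highest there, at 30.3, 59.1, 69.1 and 1.58 CPM. Ptprc had no count in cell 3, and Cd52, Laptm5, Tyrobp and Fcer1g had none in any cell. Outside cell 3 that sum reached at most 75.6 CPM. Cell 11 had a mural marker sum of 3737 CPM, of which Acta2 gave 3668 CPM, with Myh11, Cnn1, Rgs5, Cspg4, Kcnj8, Abcc9 and Notch3 at 0. The sum of 10 fibroblast markers was lowest in cell 3 (2081 CPM) and highest in cell 12 (15896 CPM), where Fbln2 (9563 CPM), Col1a2 (3946 CPM) and Col1a1 (1941 CPM) gave most of it. Fbln2 was lowest in cell 3 (1315 CPM), whereas Dcn (223 CPM) and Pdgfra (276 CPM) were highest there. Dcn, Lum, Tcf21, Dpt and Postn, which had counts in at most 3 cells, were at 0 in cells 10 and 11, while cell 10 had 175 CPM of Pdgfra (second highest) and 3406 CPM of Fbln2 (median 3513 CPM). Counts that rest on cells 3 or 10 are given with and without them where they can be, and the part of these markers in them was not tested.

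Of the 56 genes, 40 had a count in at least 1 cell, against 66.6% of all genes in the table. A count in every cell was found for 16 genes, against 35.3% of all genes. A mean of at least 10 CPM was reached by 21 genes (background 39.1%) and a mean of at least 100 CPM by 11 genes (background 10.1%). Cell 12 had a count for 22 of these genes and cell 1 for 33, with a median of 26.5 per cell. Over the whole table cell 12 had a count for 10036 genes and cell 1 for 11950. Cells 7, 8, 10, 11 and 12 had counts for 10022 to 10181 genes, and the other cells for 11216 to 11950. Their total counts were also the highest, at 5258541 or more, against 5025517 or less in the other cells. What sets these cells apart is not in the labels and was not tested. Among the 21 genes, Mmp2 and Mmp3 reached the mean of 10 CPM through cell 10 and cell 3 respectively, and 19 genes reached it when both cells were left out. Among the 11 genes, Mmp2 and Plat reached the mean of 100 CPM through cell 10. Without that cell their means were 6.73 and 92.5 CPM.

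The genes without any count were mostly MMPs and clustered in the genome. They were 10 MMPs (Mmp1a, Mmp1b, Mmp7, Mmp8, Mmp10, Mmp12, Mmp13, Mmp20, Mmp24 and Mmp27), 5 ADAMTS genes (Adamts3, Adamts15, Adamts16, Adamts18 and Adamts19) and Timp4. All 4 mouse collagenases, Mmp1a, Mmp1b, Mmp8 and Mmp13, were among them. On chromosome 9 of mm10, 10 MMP genes lie side by side between positions 7272514 and 7699585, a span of 427072 bp that holds no other gene of the table. Such clustered MMP genes arose by duplication. In these cells 9 of the 10 had no count, against 66.6% of all genes in the table with one, and the exception was Mmp3, with counts in 4 cells and up to 2492 counts.

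**Figure D1:**
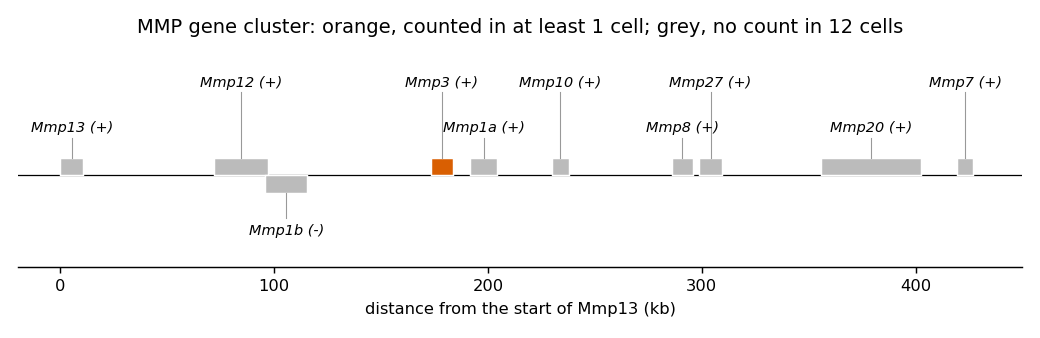
Map of the MMP gene cluster on chromosome 9, drawn to scale in kb from the start of Mmp13, with genes above the line on the plus strand and the gene below it on the minus strand. Mmp3 (orange) was the gene with counts, in 4 of 12 cells, and the 9 grey genes had none.

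Since the uncounted genes and Mmp3 sit together, their promoters were set beside those of genes that were counted in every cell. The sequences below are the 120 bases before the RefSeq start of each gene on GRCm38.p6, the same build as mm10, read 5′ to 3′ on the strand of the gene. Capitals mark 3 short motifs searched on both strands: the AP-1 motif TGANTCA, the TATA box TATAAA, and the GC box GGGCGG, which reads CCGCCC on the other strand. The first 4 come from the cluster and are shown for their shared layout.
Mmp13: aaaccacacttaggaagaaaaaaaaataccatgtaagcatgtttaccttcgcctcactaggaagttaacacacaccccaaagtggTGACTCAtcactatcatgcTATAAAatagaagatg
Mmp3: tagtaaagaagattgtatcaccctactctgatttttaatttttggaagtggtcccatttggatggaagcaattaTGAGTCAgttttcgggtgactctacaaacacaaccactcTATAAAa
Mmp1a: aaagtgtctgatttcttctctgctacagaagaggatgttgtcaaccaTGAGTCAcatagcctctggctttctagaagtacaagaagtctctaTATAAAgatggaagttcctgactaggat
Mmp10: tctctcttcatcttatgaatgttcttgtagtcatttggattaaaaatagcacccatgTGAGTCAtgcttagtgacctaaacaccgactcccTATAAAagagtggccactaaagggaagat
They lie at chr9:7272394-7272513, chr9:7445702-7445821, chr9:7464021-7464140 and chr9:7502222-7502341, all on the plus strand. In each, an AP-1 motif stands before a TATA box, and no GC box is present. In Mmp13 the AP-1 motif begins 35 bases before the start, in Mmp3 46, in Mmp10 63 and in Mmp1a 73.

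The next 4 belong to genes with counts in all 12 cells: the inhibitor Timp1, the membrane-bound protease Mmp14, the proteoglycanase Adamts1 and the urokinase receptor Plaur.
Timp1: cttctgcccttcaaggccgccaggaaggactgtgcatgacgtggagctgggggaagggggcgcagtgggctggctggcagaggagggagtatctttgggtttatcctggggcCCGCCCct
Mmp14: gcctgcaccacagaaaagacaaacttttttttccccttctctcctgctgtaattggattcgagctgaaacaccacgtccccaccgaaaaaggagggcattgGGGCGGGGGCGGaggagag
Adamts1: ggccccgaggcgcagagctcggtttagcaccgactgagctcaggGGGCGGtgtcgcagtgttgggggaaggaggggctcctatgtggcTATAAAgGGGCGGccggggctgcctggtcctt
Plaur: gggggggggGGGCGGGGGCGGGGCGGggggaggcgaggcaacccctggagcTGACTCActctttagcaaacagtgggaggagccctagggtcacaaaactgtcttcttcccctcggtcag
Their positions are chrX:20870046-20870165 (plus), chr14:54431478-54431597 (plus), chr16:85803114-85803233 (minus) and chr7:24462363-24462482 (plus). All 4 hold at least 1 GC box, Adamts1 also has a TATA box, and Plaur also has an AP-1 motif.

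Over the whole RefSeq window of 300 bases, from 250 bases before the start to 50 after it, 39 of the 56 genes had an entry. The AP-1 motif was present in 8 of the 10 cluster genes, against 8.16% of the 16207 table genes with an entry. TATAAA was found in 9 of the 10, against 14.4% of all. The GC box was found in 0 of the 10, against 51% of all. Outside the cluster the order turned around: of 29 genes, 1 held the AP-1 motif (Plaur), 2 held TATAAA and 23 held the GC box. Among the 10 genes of the set with an entry and a count in every cell, 10 held the GC box, as did 74.2% of all 6077 such genes of the table. The median observed-to-expected CpG ratio was 0.111 in the cluster and 0.584 over all genes. Over the 5177 table genes with an entry and no count in any cell, the ratio was 0.203, and 11.1% held the AP-1 motif, 24.5% TATAAA and 20.4% the GC box. Of the 4 genes of the set with an entry and no count outside the cluster, Timp4 had a ratio of 0.104, and Adamts18, Adamts3 and Mmp24 had 0.712, 0.915 and 0.918. These last 3 also held the GC box, as did 10 of the 16 genes of the set counted in 1 to 11 cells. Outside the cluster the GC box thus did not set counted apart from uncounted genes of the set. A match is a run of letters and not a shown binding site, and the cluster genes, as duplicates, are not independent of each other.

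Per length, Timp1 had the highest TPM of all 56 genes in 11 of 12 cells. Timp1, a secreted inhibitor of many MMPs (chromosome X, 20870166 to 20874735), had a lowest value of 185 CPM in cell 10, a median of 2704 CPM and a highest value of 7614 CPM in cell 1. Cell 10 lay apart below the rest, whose lowest value was 1029.5 CPM. Timp2 (chromosome 11, 118301069 to 118355740) ran from 1228 CPM in cell 9 through a median of 2394 CPM to 7748 CPM in cell 3. No cell lay far below the rest, and cell 3 lay above the next cell, cell 8, at 4718 CPM. The mean over 12 cells was 2952 ± 1936 CPM for Timp1 and 2966 ± 1807 CPM for Timp2 (SD, n = 12 cells).

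Timp3, the inhibitor that stays bound to the matrix (chromosome 10, 86300372 to 86349506), was more uneven. It had no count in cell 2, a median of 57.9 CPM and a highest value of 302 CPM in cell 3, and 9 of 12 cells had at least 10 CPM. The high cells 3 (302 CPM) and 7 (246 CPM) stood above a broad middle group. Timp3 shares 1733 of its 8144 exon bases with the opposite-strand gene Syn3, which had at most 6 counts in any cell. Timp4 had no count.

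Per length, the medians of Timp1 and Timp2 were 8604 and 1710 TPM, and that of Timp3 was 19.9 TPM. Timp1 was above Timp2 in 11 of 12 cells, and each was above Timp3 in 12 of 12. The ratio of Timp1 to Timp2 in TPM had a median of 3.55 and ran from 0.542 in cell 10 to 10.7 in cell 5, so cell 10 was the cell in which Timp2 was higher. Together Timp1 and Timp2 made up a median of 74.3% of the summed CPM of all 56 genes, with 24.5% in cell 10 and between 54.4% and 84.1% in the other 11 cells.

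Reck is an inhibitor of MMPs anchored in the cell membrane (chromosome 4, 43875530 to 43944806). Its values were low throughout, from 0.364 CPM in cell 8 through a median of 11.1 CPM to 31.9 CPM in cell 10. Cells 6 (30.6 CPM) and 7 (28.7 CPM) lay close to cell 10.

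**Figure D2:**
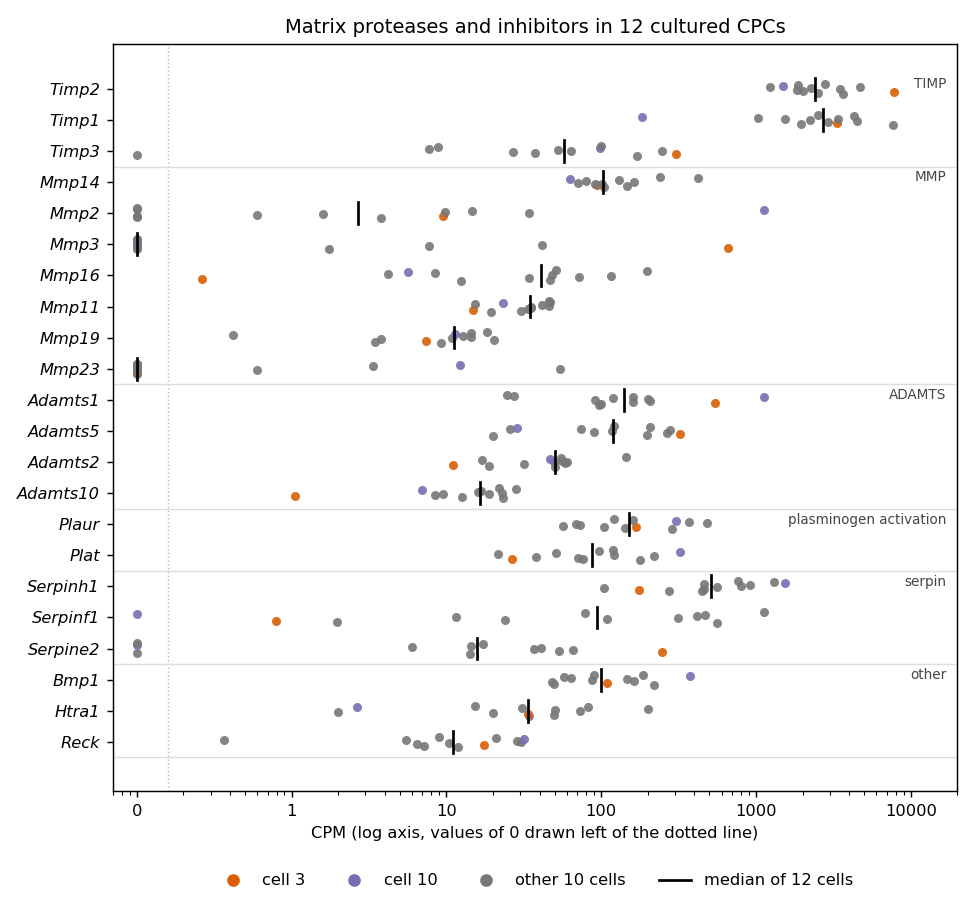
CPM of 22 matrix protease and inhibitor genes (log axis) in each of 12 cultured CPCs, grouped by class, with cell 3 in orange, cell 10 in violet, the other 10 cells in grey and black bars at the median; points left of the dotted line are 0. Timp1 lies at 1029.5 CPM or more outside cell 10 and Timp2 at 1228 CPM or more in every cell, while Mmp2 is high in cell 10 (1129 CPM) and Mmp3 in cell 3 (657 CPM).

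The MMPs with a count in every cell were Mmp11, Mmp14, Mmp16 and Mmp19. Mmp14, the membrane-type MMP that cuts fibrillar collagen and activates the MMP2 precursor (chromosome 14, 54431612 to 54445364), was counted in every cell, from 62.9 CPM in cell 10 through a median of 103 CPM to 425 CPM in cell 11. Cells 11 and 12 were the high cells, at 425 and 241 CPM, and the other 10 lay between 62.9 and 162 CPM. Mmp16, another membrane-type MMP (chromosome 4, 17852893 to 18119145), ranged far more widely, from 0.264 CPM in cell 3 through a median of 40.6 CPM to 197 CPM in cell 11. Cell 11, with the high mural marker sum given above, was the highest cell for both. Of the 6 membrane-type MMPs, 5 had a count in at least 1 cell, against 66.6% of all genes, and Mmp24 had none.

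Mmp11, a stromelysin-like MMP described in stromal cells (chromosome 10, 75923222 to 75936496), varied least of the MMPs with a mean of 10 CPM or more. It ran from 14.8 CPM in cell 3 through a median of 34.5 CPM to 46.6 CPM in cell 11, with a mean of 32.3 ± 11.8 CPM (SD, n = 12 cells). Mmp19, a secreted MMP of basement membrane substrates, ran from 0.419 CPM in cell 9 through 11.2 CPM to 20.4 CPM in cell 4. Mmp19 shares 789 of its 3533 exon bases with the opposite-strand gene Tmem198b, which had up to 103 counts, and since the strand rule of the counting is not known, reads in the shared stretch cannot be assigned to either gene.

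Other MMPs were high in a single cell. Mmp2, the gelatinase of stromal and endothelial cells (chromosome 8, 92827291 to 92853420), had 1129 CPM in cell 10, from 6013 counts. The next cell, cell 7, had 34.0 CPM, cells 2, 4, 11 and 12 had no count, and the median was 2.68 CPM. Mmp2 in cell 10 was thus 33.2 times the next highest cell. Mmp9, the other gelatinase, had 47 counts in cell 10 (exact 95% Poisson interval 34.5 to 62.5 counts, 8.82 CPM) and no count in the other 11 cells.

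Mmp3 (stromelysin 1, chromosome 9, 7445822 to 7455975), whose promoter is printed above, had 657 CPM in cell 3, 41.2 CPM in cell 6, 7.76 CPM in cell 5 and 1.74 CPM in cell 1. The other 8 cells had no count. Mmp23, a membrane-anchored MMP, had 54.5 CPM in cell 6 and 12.2 CPM in cell 10, and 4 cells in all had a count. Mmp2 and Mmp3 entered the genes with a mean of 10 CPM through these single cells: without cell 10 the mean of Mmp2 was 6.73 CPM, and without cells 3 and 10 that of Mmp3 was 5.07 CPM.

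Per length, different MMPs led in different cells. Mmp14 had the highest TPM of all MMPs in 8 cells, Mmp3 in cell 3, Mmp23 in cell 6, Mmp11 in cell 8 and Mmp2 in cell 10. The lead in cell 8 was narrow, with 41.9 TPM of Mmp11 and 37.8 TPM of Mmp14, and depended on the length used. Per base of the longest transcript (2288 and 3238 bases), Mmp14 had more counts there than Mmp11. The membrane-type enzymes made up a median of 55.5% of the summed MMP TPM, with 81.9% in cell 11, 4.13% in cell 3 and 3.06% in cell 10.

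Among the ADAMTS genes, Adamts1 and Adamts5, which cut proteoglycans, were counted in every cell. Adamts1, which cuts versican and aggrecan (chromosome 16, 85793827 to 85803113), ran from 24.8 CPM in cell 12 through a median of 140 CPM to 1121 CPM in cell 10. Cell 3 was second at 545 CPM, and the highest of the remaining 10 cells had 208 CPM. Adamts5, an aggrecanase whose gene lies near Adamts1 (chromosome 16, 85856173 to 85901828), ran from 20.0 CPM in cell 1 through 119 CPM to 324 CPM in cell 3. The neighbours did not share their high cell: cell 10, highest for Adamts1, had 28.5 CPM of Adamts5. Of 7 proteoglycan-cutting ADAMTS genes, 6 had a count, against 66.6% of all genes, and Adamts15 had none.

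Adamts2, which removes the N-terminal propeptide of procollagens (chromosome 11, 50602084 to 50807573), ran from 11.1 CPM in cell 3 through 50.1 CPM to 144 CPM in cell 12. The next cell had 59.8 CPM. Cell 12 also had the highest Col1a1 (1941 CPM) and Col1a2 (3946 CPM), which encode chains of the procollagen that Adamts2 trims. Adamts14, with the same role, had counts in 6 cells and at most 10.1 CPM, and Adamts3 had none. Adamts10, linked to fibrillin microfibrils, was low and even, from 1.05 CPM in cell 3 through 16.4 CPM to 28.3 CPM in cell 11. Per length, Adamts1 led the ADAMTS genes in 10 cells, Adamts5 in cell 11 and Adamts2 in cell 12.

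In the plasminogen system the receptor and the tissue-type activator were counted in every cell, and urokinase had few counts. Plaur, the cell surface receptor of urokinase (chromosome 7, 24462484 to 24475968), ran from 56.3 CPM in cell 5 through a median of 152 CPM to 480 CPM in cell 8. Plat, the tissue-type plasminogen activator (chromosome 8, 22757727 to 22782844), ran from 21.5 CPM in cell 8 through 86.7 CPM to 321 CPM in cell 10. Cell 8 was thus the highest cell for Plaur and the lowest for Plat. Plau, urokinase, had counts in 8 cells and at most 13.9 CPM, in cell 1.

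The serpins of the set carry different roles. Serpinh1 (HSP47), a chaperone that binds newly made collagen in the endoplasmic reticulum (chromosome 7, 99345376 to 99353239), ran from 104 CPM in cell 5 through a median of 511 CPM to 1542 CPM in cell 10. Cell 11 (1299 CPM) was close to cell 10. Cells 7, 8, 10, 11 and 12, which had fewer genes with a count, had 765 CPM or more, and the other cells 557 CPM or less. Serpine2 (protease nexin 1), which inhibits thrombin, urokinase and plasmin (chromosome 1, 79794197 to 79861180), had no count in cells 2, 10 and 12, a median of 15.8 CPM and a highest value of 246 CPM in cell 3. Without cell 3 its highest value was 65.3 CPM.

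Serpinf1 (PEDF), a secreted serpin without protease inhibition that limits vessel growth (chromosome 11, 75409769 to 75422701), ranged from no count in cell 10 through a median of 93.4 CPM to 1128 CPM in cell 12. Cells 2 and 3 were also near 0, with 1.98 and 0.791 CPM, while 9 cells had at least 10 CPM. Cell 12 also had the highest fibroblast marker sum, carried mostly by Fbln2, Col1a2 and Col1a1 as given above, and the part of these markers was not tested.

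Bmp1, the protease that removes the C-terminal propeptide of procollagens (chromosome 14, 70474558 to 70520234), ran from 48.2 CPM in cell 4 through a median of 99.2 CPM to 372 CPM in cell 10, with cell 1 second at 218 CPM. Htra1, a secreted serine protease that cuts fibronectin among other targets (chromosome 7, 130936111 to 130985660), ran from 1.99 CPM in cell 5 through 33.8 CPM to 201.1 CPM in cell 8. Cell 10 was also low, at 2.63 CPM.

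The remaining 18 genes with a count were low. Of these, 12 reached between 5 and 50 CPM in some cell and 6 stayed under 5 CPM in every cell. The highest single value among them was 33.4 CPM, for Adamts9 in cell 10. Counts in 1 cell only were found for Mmp9 (cell 10), Adamts20 (cell 2), Adamts17 (cell 9) and Adamts13 (cell 12).

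Ordered by median TPM, Timp1 (8604 TPM), Timp2 (1710 TPM) and Serpinh1 (601 TPM) came first, followed by Plaur (157 TPM), Serpinf1 (112 TPM), Adamts1 (72.2 TPM), Mmp14 (45.7 TPM) and Plat (39.8 TPM). Neighbours at the top of this order kept it in most cells, with Timp2 above Serpinh1 in 10 of 12 cells and Serpinh1 above Plaur in 12 of 12. Further down the order held in fewer cells: Plaur exceeded Serpinf1 in 7 of 12 cells, Serpinf1 exceeded Adamts1 in 7, Adamts1 exceeded Mmp14 in 9, Mmp14 exceeded Plat in 9, and in the run of Plat, Mmp11, Adamts5, Htra1 and Bmp1 each gene exceeded the next in 7. This order holds for the summed exon length, and neighbours can change places with another length. For Mmp14 that length is 5960 bases and the longest transcript 3238 bases, against 5302 and 4884 bases for Adamts1.

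Summed by class, inhibitor transcripts outweighed MMP transcripts in every cell, by very different factors. The TIMP sum ran from 1773 TPM in cell 10 through a median of 10395 TPM to 24937 TPM in cell 1. The MMP sum ran from 81.8 TPM in cell 1 through 155 TPM to 1076 TPM in cell 10, with cell 3 at 993 TPM. The ADAMTS sum ran from 85.1 TPM in cell 1 through 121 TPM to 662 TPM in cell 10. Cell 1 was therefore at the top for TIMPs and at the bottom for both protease families, and cell 10 the reverse.

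The ratio of the TIMP to the MMP sum in TPM had a median of 49.2. It was 1.65 in cell 10, 14.7 in cell 3 and 305 in cell 1. Its size depends on gene length: with the longest transcript of each gene the median was 30.1, and with no length correction it was 15.99. Cell 10 was lowest under all 3 choices, at 1.65, 1.53 and 1.41. The next was cell 3 under both lengths, at 14.7 and 14.5, but cell 11 with no length correction, at 9.003. The place of cell 3 thus depended on the length correction. The ratio concerns transcripts and says nothing of protein or enzyme activity.

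**Figure D3:**
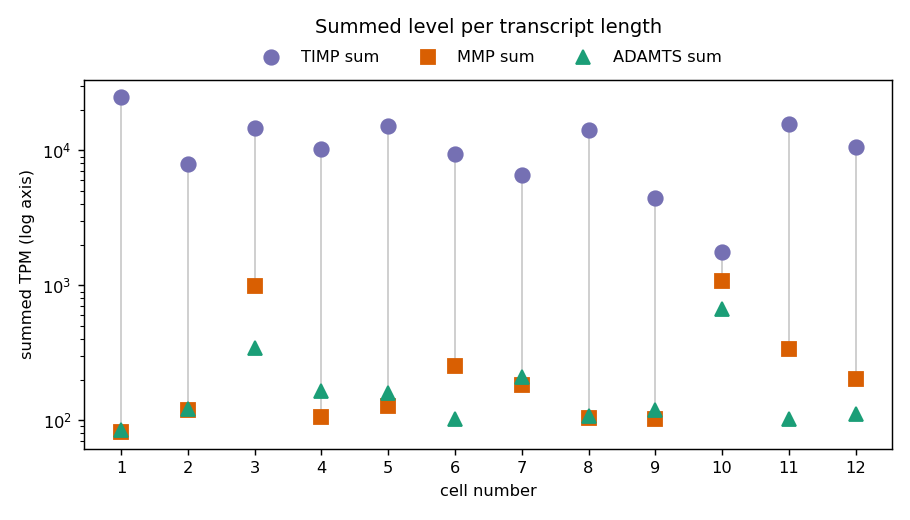
Summed TPM (log axis) of TIMP (circles), MMP (squares) and ADAMTS genes (triangles) in each of the 12 cells, with grey lines joining the TIMP and MMP sums of a cell. The gap is widest in cell 1 (ratio 305) and nearly closed in cell 10 (ratio 1.65).

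Cell 10, the cell with the endothelial markers, was set beside the median of the other 11 cells, for the genes whose mean reached 10 CPM. Of the 21 genes, 4 were at least 4-fold higher in cell 10, against 5.28% of all 8492 genes with that mean: Mmp2 (1129 against 1.59 CPM, 708-fold), Adamts1 (1121 against 120 CPM, 9.35-fold), Plat (321 against 76.3 CPM, 4.20-fold) and Bmp1 (372 against 90.0 CPM, 4.14-fold). Mmp2 passed the mean of 10 CPM through cell 10 itself, so its place among the 4 was fixed by that filter. When the mean was read from the other 11 cells, 3 of 20 genes were at least 4-fold higher, against 3.84% of all genes, and 6 of 20 at least 4-fold lower, against 14.1%.

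Leaving out each of the 11 cells in turn, Plat fell under the limit without cell 2, 3, 4, 5, 8 or 9 (lowest 3.70-fold) and Bmp1 without cell 2, 4, 6, 8, 9 or 11 (lowest 3.75-fold), while Adamts1 stayed between 8.02-fold and 10.2-fold. The fold of Mmp2, set against a median of few counts, then ran from 421 to 1031, with the highest value arising without cell 1, 3, 7, 8 or 9. Just under the 4-fold limit over all cells were Serpinh1 (3.32-fold) and Reck (3.08-fold).

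At least 4-fold lower in cell 10 were 6 of the 21 genes, against 13.3% of all genes. Timp1 was 15.8-fold lower (185 against 2911 CPM), Htra1 12.998-fold, Mmp16 8.33-fold and Adamts5 4.22-fold, the last of which fell to 3.81-fold when cells were scaled by size factors in place of CPM. For genes without a count in cell 10 the fold is a bound set by 3 counts in that library: Serpinf1 was at least 193-fold lower and Serpine2 at least 30.4-fold lower. Timp2 (1495 against 2506 CPM) and Mmp14 (62.9 against 104 CPM) differed less, by 1.68-fold and 1.65-fold. The median ratio of cell 10 to the others was 0.792 for the 20 genes with a fold (Mmp3 was at 0 on both sides) and 0.858 for all 8468 genes with one. This is a comparison of 1 cell with 11, with no replicate check. Cell 10 was also one of the cells with fewer genes counted, as given above, and the part of that difference was not tested. Cell 10 was singled out with its extreme values for these genes known, so the counts describe that cell and the shares over all genes give no expectation for a cell chosen in this way.

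**Figure D4:**
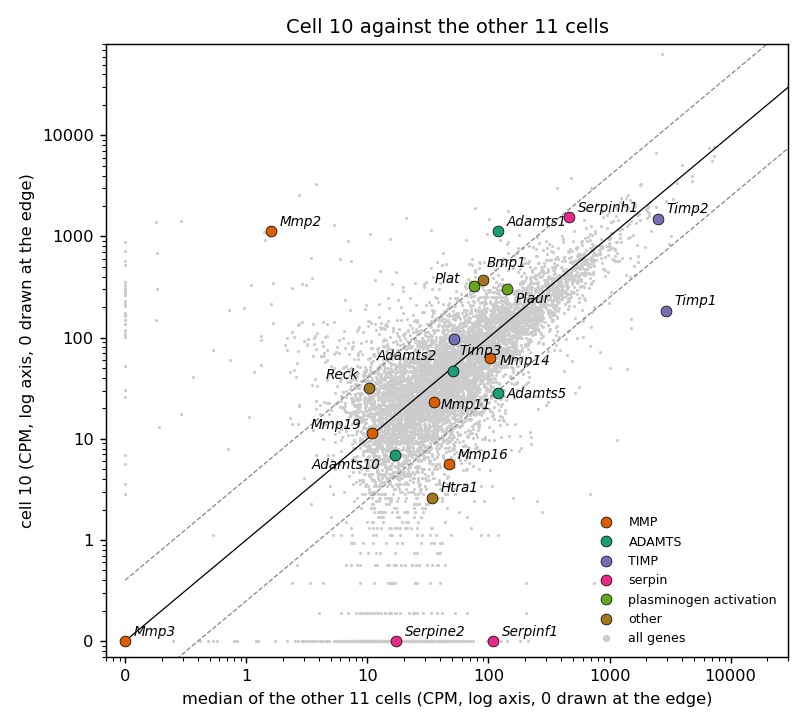
CPM in cell 10 against the median CPM of the other 11 cells (log axes, 0 drawn at the edge) for 21 matrix protease and inhibitor genes, coloured by class, and all other genes whose mean reached 10 CPM (grey), with the line of equality and dashed lines at 4-fold. Mmp2 (708-fold) and Adamts1 (9.35-fold) lie far above the upper line, and Timp1, Htra1, Mmp16, Serpine2 and Serpinf1 below the lower one.

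Cell 10 was the highest cell for 6 of the 21 genes (Mmp2, Adamts1, Plat, Bmp1, Serpinh1 and Reck), against 11.9% of all genes with that mean. Cell 3 was the highest for 5 (Timp2, Timp3, Adamts5, Serpine2 and Mmp3), against 6.98%. With the mean read from the cells other than the one in question, these were 5 of 20 genes for cell 10 (Mmp2 left out), against 10.5%, and 4 of 20 for cell 3 (Mmp3 left out), against 6.32%. For Adamts1, cell 3 came second to cell 10.

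Variation between cells was compared with that of genes of like level by a dispersion residual, the log10 of the squared coefficient of variation minus a running median of it along genes sorted by mean level. It was computed for genes whose mean reached 5 CPM, with counts in at least 3 cells. Of 23 genes of the set that met this, 16 lay in the top 10 percent of all 9701 genes (background 10%), and their median residual was 0.56 against 0 for all genes. Mmp2 (1.70) and Mmp3 (1.63) led, followed by Adamts1 (1.08), Serpinf1 (1.07) and Serpine2 (1.01). Mmp14 (0.51) lay at the very edge of the top 10 percent. Mmp11 (-0.36), Mmp19 (-0.33) and Adamts10 (-0.27) varied less than genes of like level. Mmp3, Mmp23 and Adamts9 passed the 5 CPM through their highest cell, so their place was fixed by that filter. With the mean read without the highest cell of each gene, 13 of 20 genes lay in the top 10 percent of 9243 genes, and the median residual was 0.55. With cells 3 and 10 left out, 13 of 22 genes lay in the top 10 percent and the median residual was 0.49.

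**Figure D5:**
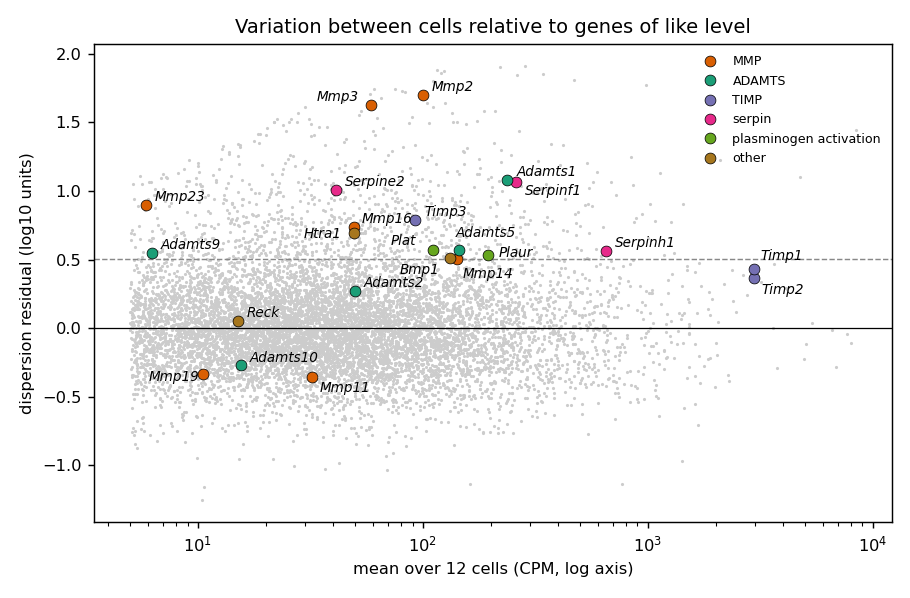
Dispersion residual (log10 units) against mean CPM over 12 cells (log axis) for 23 matrix protease and inhibitor genes, coloured by class, and all other genes tested (grey), with the dashed line at the top 10 percent. Of the 23 genes, 16 lie above the dashed line, and Mmp11, Mmp19 and Adamts10 lie below 0.

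Correlation between the genes was compared with that between all genes. Over the 210 pairs of the 21 genes, the median Spearman rho across 12 cells was 0.07, and over all pairs of genes with that mean it was 0.02. A rho of at least 0.7 was found for 1 pair, Reck and Plat (0.72, and 0.81 over the 10 cells without cells 3 and 10), which is 0.476% of the pairs against 1.24% of all pairs. Without cells 3 and 10 it was found for 4 pairs, 1.90% against 1.92% of all pairs, with a median rho of 0.13 against 0.01. The most negative pair was Mmp16 and Plaur over 12 cells (-0.71, and -0.64 without cells 3 and 10), and Serpinf1 and Adamts5 without those cells (-0.73, and -0.52 over 12 cells). All values of a cell share 1 library and its depth, and these correlations are descriptions.

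Partners, regulators and substrates of these enzymes were read from lists that do not include members of the set. Of 46 partner genes, 37 had a count in at least 1 cell (background 66.6%) and 24 in every cell (background 35.3%). Serpinb2, a serpin that inhibits urokinase, ran from 0 through 38.0 CPM to 1987 CPM in cell 3. Plg, the plasminogen gene, had no count.

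Bsg (basigin), which induces MMPs in neighbouring cells, was high in every cell, from 958 CPM in cell 10 through 1402 CPM to 3073 CPM in cell 12. Lrp1, the receptor through which MMPs, ADAMTS proteases and activator complexes are taken up, had a median of 201.3 CPM but 0.188 CPM in cell 10. Furin, which removes the propeptide of membrane-type MMPs and ADAMTS proteases, was highest in cell 10 at 87.5 CPM, against a median of 21.3 CPM. Tll1, a relative of Bmp1 that also trims procollagen, was lowest in cell 10 at 10.3 CPM, with a median of 91.8 CPM, where Bmp1 was highest.

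Of 14 substrate genes, 13 had a count (background 66.6%) and Eln had none. Cell 10 was highest for Fn1 (3830 CPM, next cell 1512 CPM, median 542 CPM), Sparc (6623 CPM, next cell 6185 CPM, median 2580 CPM) and Col4a1 (1509 CPM, next cell 686 CPM, median 358 CPM). It was lowest for Col1a1 (10.7 CPM, next cell 12.9 CPM), Col1a2 (0.376 CPM, next cell 22.1 CPM) and Col3a1 (1.13 CPM, next cell 10.1 CPM). For Sparc and Col1a1 the next cell was thus close. Serpinh1 and Bmp1, which act on procollagen, were thus highest in the cell with the lowest Col1a1, Col1a2 and Col3a1 and the highest Col4a1. Pcolce and Pcolce2, which enhance the procollagen cleavage by BMP1, were low there, with 155 CPM of Pcolce (median of the other 11 cells 613 CPM) and no count of Pcolce2 (median of the others 109 CPM). Whether the endothelial markers of cell 10 account for these values was not tested.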

How the data were processed

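Single cultured CPCs were sequenced with Smart-Seq v4, and what was deposited is a table of unnormalized read counts, with a row per gene and a column per cell. According to the submitters' processing notes and the methods, the authors mapped reads to mm10 with STAR 2.5.2b and kept uniquely mapped reads. The counting program, its annotation and its strand rule are not given in the sources used here, so reads of overlapping genes may be misassigned. CPM and TPM were computed from these counts here.

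Each of 12 columns was matched to its cell by name. Gene positions and exon lengths came from GENCODE vM21, with 98.4% of symbols matched, and promoter sequences from RefSeq (GRCm38.p6). Genes that averaged at least 10 CPM, or reached 50 CPM in any cell, were described singly, and the others by counts and ranges or, without a count, by name. Members, lists and measures were chosen with earlier results of these data known. The scripts were tested on simulated counts. Alternatives changed the thresholds, scales, lengths and depth or left out a cell. Lists of cell type markers, partners and substrates were described and not tested, and some of their genes are not reported here. Tables were handled with pandas 2.3.3 and numpy 2.4.6 in Python 3.11.15, intervals came from scipy 1.17.1, and plots from matplotlib 3.10.9.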

Additional observations from a re-analysis of the deposited data

How the results depend on the processing

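A count was taken to move when it changed by over 1.5 times, and a level when it changed by over 1 SD of the cells. Over 13 results and 42 alternatives other than leaving out a cell, 38 values did not move by this measure and 4 did. The SD is wide, so that the median ratio of TIMP to MMP sums passed, although it fell from 49.2 to 30.1 with the longest transcript and to 15.99 with no length correction. All 4 that moved concern the number of genes at least 4-fold higher in cell 10, which was 4 as reported, 7 at a limit of 2-fold, 2 at 8-fold, 10 with no filter on the mean and 2 against the mean of the other 11 cells. Leaving out each other cell in turn gave 2 to 4, with 2 when cell 2, 4, 8 or 9 was left out, since Plat and Bmp1 then fell below 4-fold. The number at least 4-fold lower was 6, also without any 1 of the other cells, 7 at 2-fold or against the mean, and 5 at 8-fold or with size factors, where Adamts5 fell short. The number of genes with a count in every cell was 16, and 12 with a minimum of 5 or 10 counts. The alternative without cells 3 and 10, for the number of genes averaging at least 10 CPM, the one that reads the mean from the other 11 cells (3 higher and 6 lower) and the one that reads it without the highest cell of a gene, for dispersion, were chosen after seeing the data. On a scale of size factors in place of CPM, values rose by 0.26 (log2) in cell 3 and 0.16 in cell 10. No paired analysis was possible because there is 1 group. With 12 cells of 1 group and no animal or culture named, no spread between animals could be estimated.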
